A study of Mus musculus with 10 samples.

Results

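The genes described here encode ATP-dependent chromatin remodellers and their partner subunits. They were taken by symbol from a deposited table of chromatin accessibility in mouse embryonic fibroblasts (MEFs), and all 44 symbols were found among its 21965 genes. They comprise 15 core or shared subunits of the SWI/SNF complex, 10 subunits that distinguish the forms of SWI/SNF, 6 ISWI genes, 8 CHD genes and 5 genes of the INO80 family. The assay was ATAC-seq, where a transposase cuts exposed DNA and leaves sequencing adapters there, so that signal marks DNA free of nucleosomes.

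A remodeller couples ATP hydrolysis to the sliding, eviction or exchange of nucleosomes. SWI/SNF opens enhancers and promoters around its ATPase Brg1 (gene symbol Smarca4) or Brm (Smarca2), ISWI spaces nucleosomes, CHD proteins space them or act in repressive complexes, and the INO80 family exchanges the histone variant H2A.Z. Pluripotent mouse cells use a form of SWI/SNF built on Brg1, which is also needed for efficient reprogramming of fibroblasts, whereas neurons switch to subunits such as Actl6b, Dpf1 and Dpf3.

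The MEFs came from embryos at day 13.5 that carried GFP under the Oct4 promoter, are labelled as strain ICR, and were infected with pMXs retroviruses. All 10 conditions were kept in mESC medium, the medium for mouse embryonic stem cells. SKO+shBrg1 cells received Sox2, Klf4, Oct4 and an shRNA named for Brg1. SKO-L80A+Vc cells received Sox2, Klf4 and the Oct4 mutant L80A with vitamin C at 50 µg per ml, and SKO-L80A+Ga cells received the same 3 factors and Gadd45a. SKO-L80A cells received Sox2, Klf4 and Oct4 L80A, and SKO cells received Sox2, Klf4 and wild-type Oct4. Oct4-L80A, Oct4, Klf4 and Sox2 cells received 1 factor each, and Flag cells received the control virus. The labels mention no selection of infected cells, so each library may hold uninfected fibroblasts, and the time between infection and harvest is not stated in those labels.

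Each condition has 1 library and 2 columns in the table, and no source used here says how the 2 columns relate. Both columns are printed below, column 1 first, and were counted as repeat measurements of 1 sample. There is therefore no replicate error, no test was made, and no p-value is given. Column totals of the signal ranged from 112439 to 370390, and the number of reads behind a value is unknown. As deposited, the summed signal of the 12 fibroblast marker genes ranged from 116 in Sox2 to 208 in SKO+shBrg1. In each condition 7 to 9 of them were at or above the minimum signal of 6.92 used below, and none was at 0. Such sums carry the scale of a column. With the shift common to all genes removed, the median log2 signal of this list lay between 3.31 in SKO-L80A+Vc and 3.53 in Flag. Of 8 pluripotency markers, at most 1 reached that minimum in any condition, and of the 6 epithelial, 5 macrophage, 4 endothelial and 4 neural markers at most 2 of a list did. The factor genes matched the labels except in 1 library: the Oct4-labelled library had a Sox2 signal of 62.9 and 55.2, against 2.73 and 5.12 in Flag, so it is named by its label throughout, as the Oct4-labelled library.

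The deposited signal followed the position of a gene's start. Of 400 gene pairs whose RefSeq starts lie at most 500 bases apart, 377 had values within 1% of each other, against 16 of 488 pairs whose starts lie 5000 to 10000 bases apart. For 6 remodeller genes another gene had values within 1% in the median over the 20 columns, so the signal cannot be assigned to 1 gene. Pbrm1 shared its values with Gnl3, Brd9 with Trip13 and Ruvbl2 with Gys1, whose RefSeq starts lie 7, 44 and 375 bases away. Smarcb1 shared them with Mmp11 and Smarcc1 with Dhx30, although those starts lie 10888 and 14408 bases away, and Baz1a shared them with Gm20403, whose position was not used here. A value is accessibility and not RNA, and a hairpin that lowers an mRNA need not alter it.

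Because the signal followed gene starts, the DNA before the start is shown for 6 genes on which the results turn. Smarca4 is the gene named by the hairpin, Dpf1 and Smarcd1 differed most between SKO and Flag, Actl6b and Smarca1 varied most over the conditions, and Ruvbl2 was among the 5 genes with the largest differences in SKO+shBrg1. The sequences are from RefSeq on GRCm38.p6 and give the 250 bases before the start on the gene's own strand. Smarca4 (chr9:21615919-21616168), Dpf1 (chr7:29303755-29304004), Smarcd1 (chr15:99702037-99702286) and Actl6b (chr5:137553296-137553545) lie on the plus strand, and Smarca1 (chrX:47892614-47892863) and Ruvbl2 (chr7:45434465-45434714) on the minus strand. For Ruvbl2 the RefSeq promoter table's start is used, which lies inside the full RefSeq extent of the gene (chr7:45421896-45436171). Capitals mark a match to the NFY motif CCAAT or to the Klf motif GGGTGTGG or GGGCGTGG, on either strand.
Smarca4: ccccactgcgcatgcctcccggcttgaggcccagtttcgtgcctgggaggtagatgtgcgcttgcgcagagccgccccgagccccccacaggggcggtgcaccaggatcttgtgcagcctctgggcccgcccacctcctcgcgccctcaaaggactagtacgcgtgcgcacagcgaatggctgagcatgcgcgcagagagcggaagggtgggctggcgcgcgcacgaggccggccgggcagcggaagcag
Dpf1: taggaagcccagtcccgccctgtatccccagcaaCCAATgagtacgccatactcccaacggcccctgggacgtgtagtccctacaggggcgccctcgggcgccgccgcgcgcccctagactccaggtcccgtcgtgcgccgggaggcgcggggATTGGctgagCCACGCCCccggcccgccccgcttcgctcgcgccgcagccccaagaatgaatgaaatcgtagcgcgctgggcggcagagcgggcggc
Smarcd1: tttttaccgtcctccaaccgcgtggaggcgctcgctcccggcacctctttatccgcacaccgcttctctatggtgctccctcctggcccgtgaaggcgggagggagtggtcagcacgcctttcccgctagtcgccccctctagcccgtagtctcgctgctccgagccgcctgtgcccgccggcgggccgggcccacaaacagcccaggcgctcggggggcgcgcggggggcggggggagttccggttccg
Actl6b: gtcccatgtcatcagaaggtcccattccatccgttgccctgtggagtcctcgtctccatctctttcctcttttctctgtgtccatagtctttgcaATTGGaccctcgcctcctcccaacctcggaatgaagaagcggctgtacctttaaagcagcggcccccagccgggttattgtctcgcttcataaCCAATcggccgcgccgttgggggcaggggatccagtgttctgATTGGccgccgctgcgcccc
Smarca1: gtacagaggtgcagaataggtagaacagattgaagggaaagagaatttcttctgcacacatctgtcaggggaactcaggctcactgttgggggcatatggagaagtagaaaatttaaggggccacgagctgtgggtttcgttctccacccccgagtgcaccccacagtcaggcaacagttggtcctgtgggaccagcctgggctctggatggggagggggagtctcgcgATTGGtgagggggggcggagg
Ruvbl2: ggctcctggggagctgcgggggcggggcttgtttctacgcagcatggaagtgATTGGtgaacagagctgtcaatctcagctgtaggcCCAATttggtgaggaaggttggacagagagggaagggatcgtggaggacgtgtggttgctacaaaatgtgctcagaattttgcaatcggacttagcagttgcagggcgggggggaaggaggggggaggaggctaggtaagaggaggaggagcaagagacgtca

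The 250 bases before Dpf1 hold 1 Klf and 2 NFY matches, those before Actl6b hold 3 NFY matches, those before Ruvbl2 hold 2 and those before Smarca1 hold 1. The stretches before Smarca4 and Smarcd1 hold no match to any motif searched. They differ in CpG content, with 31 CpG dinucleotides in Dpf1, 29 in Smarcd1, 25 in Smarca4, 15 in Actl6b, 8 in Ruvbl2 and 6 in Smarca1.

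Across the family, RefSeq promoter windows reaching from 250 bases before to 50 bases after the start were found for 35 of the 44 genes, 39 windows in all. None was listed for Chd3, Bcl7a, Smarce1, Chd1, Baz1a, Chd7, Arid2, Ss18 and Chd2. The remodeller windows were rich in CpG, with a median of 30 per window against 7 over all 32851 windows, and 37 of the 39 were above that median. Klf motifs were found in 6 of 39 windows, those of Chd4, Dpf1, Ep400, Ino80 and Smarcc1 (15.4%, against 8.58% of all windows). Among these genes, 1 has more than 1 window. NFY motifs were found in 13 windows (33.3%, against 37.4%). The AP-1 motif TGANTCA was in 2 windows, Smarca2 and Smarcb1 (5.13%, against 7.81%), and the Sox motifs ACAATGG and ACAAAGG were in 2, Chd6 and Smarcd2 (5.13%, against 9.28%). The Oct motif ATGCAAAT was in 1 window, that of Chd6 (2.56%, against 1.74%), the ETS motif CCGGAAGT was in 0 (against 3.89%), and the palindromic NRF1 motif was in 0 (against 0.971%). Both strands were searched, and no motif overlaps another in the printed sequences.

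Most remodeller genes had accessible starts in every condition. Of the 44, 36 reached the minimum signal of 6.92, which is the table's median value, in all 10 conditions. Another 6 reached it in some conditions, namely Baz1a and Smarcb1 in 9, Dpf1 in 8, Chd7 in 7, Chd4 in 6 and Actl6b in 4. Phf10 and Smarca1 reached it in none. Every condition was at the minimum for 81.8% of the remodeller genes, against 40.4% of all genes, and at least 1 was for 95.5%, against 58.6%. The median of the mean signal was 15.1 for the remodeller genes, against 7.54 for all genes and 14.9 for the genes that reached the minimum, so the remodeller median was close to that of other genes with an accessible start.

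The highest mean signals belonged to Ep400, the ATPase of the TIP60-p400 complex, with 44.2, to Actl6a, an actin-related subunit shared by SWI/SNF and INO80, with 36.2, and to Chd6 with 35.9. Ep400 spanned 22.2 to 73.1 over the 20 columns, Actl6a 18.3 to 57.7 and Chd6 17.2 to 54.6. The lowest were Smarca1, the X-linked ISWI ATPase Snf2l, with 0.982, Phf10, a PBAF subunit that mouse neural progenitors use, with 1.72, and Actl6b, the neuronal partner of Actl6a, with 5.54. Smarca1 spanned 0.414 to 1.93 and Phf10 0.413 to 3.63, so both stayed below the minimum in every column.

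Smarca4 (ENSMUSG00000032187) lies at chr9:21616106-21704230 on GRCm38.p6, Dpf1 (ENSMUSG00000030584) at chr7:29303952-29317592, Smarcd1 (ENSMUSG00000023018) at chr15:99702287-99713995, Actl6b (ENSMUSG00000029712) at chr5:137553361-137569582 and Chd7 (ENSMUSG00000041235) at chr4:8690402-8868449. Paralogues differed widely in level. Smarca2 averaged 33.7 and Smarca4 14.9. Smarca5, the widely used ISWI ATPase Snf2h, averaged 23.0, against 0.982 for Smarca1. Among the CHD genes, Chd6, Chd2, Chd8 and Chd9 lay between 29.9 and 35.9, while Chd3 and Chd4, the ATPases of the repressive NuRD complex, averaged 12.4 and 6.80. These values were treated as densities near gene starts, but the counting window is not given, so genes may not be on 1 scale. Their order says nothing of protein amounts.

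Over the 10 conditions the remodeller starts varied to a degree near that of other genes that reached the minimum. After the shift of each column common to all genes was removed, the range between the highest and the lowest condition had a median of 0.39 on the log2 scale, against 0.44 for genes that reached the minimum. The range was under 0.5 for 32 of 44 remodeller genes, against 61.1% of those genes, and at least 1 for 2 remodeller genes, against 6.36%. It was smallest for Smarce1, a DNA-binding SWI/SNF subunit, with 0.20, for Pbrm1, the bromodomain subunit of PBAF, with 0.22, and for Arid1b, a BAF subunit, with 0.26. It was largest for Actl6b with 1.35, for Smarca1 with 1.20 and for Dpf1, a neuronal BAF subunit, with 0.91. Smarca1 was near the foot of the scale, where a small difference in signal gives a large log2 range.

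The comparison of SKO+shBrg1 with SKO asks how accessibility differed when the Brg1 hairpin was added to the 3 factors. At Smarca4 itself the signal was 24.4 and 16.6 in SKO+shBrg1, against 19.8 and 14.7 in SKO, higher in each column. The log2 difference, the mean over both columns of log2(signal + 0.138), was 0.24, or 0.14 above the median difference of all genes. The signal at the targeted gene was thus higher and not lower within each column, as it was for 64.6% of genes at the minimum signal. Values of the 2 conditions overlapped, since 16.6 in SKO+shBrg1 lay below 19.8 in SKO. After quantile normalisation the difference was 0.10. It was also of the order of the SD between columns over the remodeller genes at the minimum, 0.24 in SKO+shBrg1 and 0.19 in SKO. Accessibility does not measure Brg1 RNA or protein, so how far the hairpin lowered Brg1 was not tested.

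No remodeller gene differed by 2-fold with the higher level at or above 6.92. The count was 0 of 44 in each direction, against a background of 0.00455% of all genes higher, which is 1 gene, and 0% lower. That gene, Gm20594, is named after its values were seen, and its columns disagreed in size, with 5.59 and 25.1 in SKO+shBrg1 against 1.82 and 4.20 in SKO. The median log2 difference was 0.16 for the remodeller genes, against 0.09 for all genes and 0.12 for genes at the minimum. Relative to the median of all genes, the remodeller median was 0.06 and that of genes at the minimum 0.02. The relative differences of all 44 lay between -0.21 and 0.23, within 0.25 either way, as did those of 97.1% of genes at the minimum.

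The signs were close to those of other accessible genes. The difference was positive for 39 of 44 genes (88.6%), against 72.3% of all genes and 88.4% of genes at the minimum. It was positive in both columns for 32 genes (72.7%, against 48.8% of all genes and 64.6% of genes at the minimum) and negative in both for 1 (2.27%, against 14.2% and 3.53%). With the all-gene median subtracted it was negative for 10 of the 44 genes, and the median difference of 0.16 was 0.033 after quantile normalisation. Counting only the 42 genes at the minimum, 20 lay above the median of all genes in both columns (47.6%, against a background of 34.9%) and 5 below it in both (11.9%, against 18.9%), and in 17 the columns disagreed. The spread between the columns of 1 condition was of the same order as these differences: its SD over the remodeller genes at the minimum was 0.24 in SKO+shBrg1 and 0.19 in SKO on the log2 scale. The summed marker signals, as deposited, were also higher in SKO+shBrg1, with 208 against 195 in SKO for fibroblast and 27.2 against 23.8 for pluripotency genes. They were 32.4 against 26.3 for epithelial, 30.2 against 25.2 for macrophage, 18.3 against 14.5 for endothelial and 39.4 against 37.0 for neural genes. With the common shift removed, the median log2 signal was 3.41 against 3.39 for fibroblast, 1.25 against 1.19 for pluripotency and 1.36 against 0.90 for epithelial genes. It was 0.48 against 0.46 for macrophage, 1.48 against 1.27 for endothelial and 2.65 against 2.64 for neural genes. The part of these markers in the result was not tested.

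**Figure D1:**
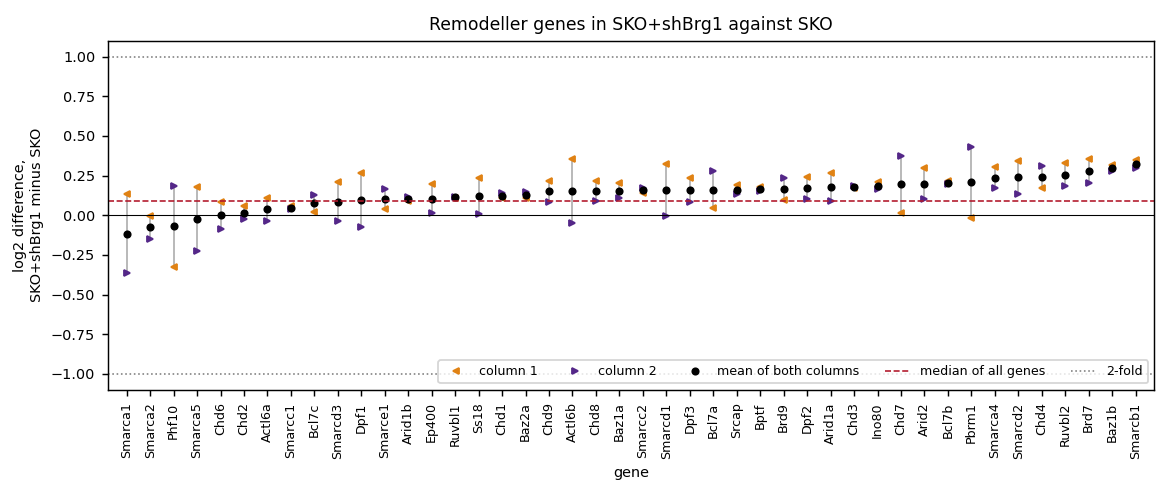
Log2 difference in ATAC signal, SKO+shBrg1 minus SKO, for each of the 44 remodeller genes, ordered by the difference, with triangles for columns 1 and 2 and dots for their mean. The dashed line is the median of all genes (0.09) and dotted lines mark 2-fold. All means lie between -0.12 and 0.32, and the columns of single genes often differ by as much.

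Among the SWI/SNF genes, the ATPases lay on opposite sides. Smarca2, which encodes Brm and can take the place of Brg1 in the complex, had 49.3 and 36.5 in SKO+shBrg1, against 49.6 and 40.4 in SKO, a log2 difference of -0.08. It was the gene that was lower in both columns, whereas Smarca4 was higher in both. Relative to all genes the values were -0.17 for Smarca2 and 0.14 for Smarca4, each a difference of under 0.25.

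The largest positive difference of the family was at Smarcb1, the core subunit lost in rhabdoid tumours, with 18.9 and 13.6 in SKO+shBrg1 against 14.9 and 11.0 in SKO, and a log2 difference of 0.32. Brd7, a bromodomain subunit of PBAF, had 15.5 and 13.3 in SKO+shBrg1, against 12.1 and 11.5 in SKO, a log2 difference of 0.28. Both genes were higher in each column, and their values in SKO+shBrg1 did not overlap those in SKO for Brd7 but did for Smarcb1. Of the 44 genes, 6 had both SKO+shBrg1 values above both SKO values (13.6%, against 11.2% of all genes). Phf10 had 1.47 and 2.73 in SKO+shBrg1, against 1.87 and 2.39 in SKO, a log2 difference of -0.07 whose columns pointed in opposite directions. The relative medians were 0.06 for the 15 core and shared subunits and 0.08 for the 10 form-specific ones.

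Among the ISWI genes, Baz1b, the WSTF partner of Snf2h, had 30.8 and 23.7 in SKO+shBrg1, against 24.6 and 19.5 in SKO, a log2 difference of 0.30. Smarca5 had 38.1 and 26.3 in SKO+shBrg1, against 33.6 and 30.7 in SKO, a log2 difference of -0.02. Smarca1 had 1.32 and 1.47 in SKO+shBrg1, against 1.19 and 1.93 in SKO, a log2 difference of -0.12. In both ISWI ATPases column 1 was higher and column 2 lower in SKO+shBrg1, so neither showed a direction, while Baz1b was higher in each. The relative median of the 6 ISWI genes was 0.05.

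Among the CHD genes, Chd4, the main NuRD ATPase, had 9.98 and 9.25 in SKO+shBrg1, against 8.86 and 7.42 in SKO, a log2 difference of 0.24. Chd3, its paralogue, had 22.7 and 14.5 in SKO+shBrg1, against 20.1 and 12.8 in SKO, a difference of 0.18. Chd7, which acts at enhancers and is mutated in CHARGE syndrome, had 8.12 and 11.6 in SKO+shBrg1, against 8.04 and 8.93 in SKO, a difference of 0.19. For Chd7 that difference came almost wholly from column 2, with 0.01 in column 1 and 0.37 in column 2.

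Chd8, linked to autism in people and to Wnt targets, had 56.3 and 42.9 in SKO+shBrg1, against 48.4 and 40.2 in SKO, a difference of 0.16. Chd9 had 46.1 and 37.0 in SKO+shBrg1, against 39.7 and 34.8 in SKO, a difference of 0.15. Chd1, which keeps the chromatin of mouse embryonic stem cells open, had 36.7 and 34.6 in SKO+shBrg1, against 34.0 and 31.4 in SKO, a difference of 0.12. All 3 were higher in each column, and each mean difference was below the SD between columns given above. Chd2 had 57.2 and 40.5 in SKO+shBrg1, against 54.9 and 41.2 in SKO, a difference of 0.02. Chd6 had 54.6 and 42.0 in SKO+shBrg1, against 51.6 and 44.5 in SKO, and its columns cancelled to a difference of -0.0012. The relative median of the 8 CHD genes was 0.06.

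In the INO80 family, Ruvbl2, an AAA+ ATPase shared by its complexes, had 57.3 and 32.0 in SKO+shBrg1, against 45.5 and 28.2 in SKO, a log2 difference of 0.26. Its partner Ruvbl1 had 23.4 and 16.4 in SKO+shBrg1, against 21.6 and 15.2 in SKO, a difference of 0.11. Ino80 had 34.9 and 23.3 in SKO+shBrg1, against 30.2 and 20.7 in SKO, a difference of 0.19. These genes were higher in each column, but column 1 exceeded column 2 within each condition by more than the conditions differed.

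Srcap, the ATPase that deposits H2A.Z, had 36.4 and 26.7 in SKO+shBrg1, against 31.9 and 24.3 in SKO, a difference of 0.16. Ep400 had 73.1 and 47.8 in SKO+shBrg1, against 63.8 and 47.3 in SKO, a difference of 0.11. The relative median of the 5 INO80 genes was 0.07, so the medians of all 5 groups of the family lay between 0.05 and 0.08.

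Larger differences were found between the 3 factors and the control virus. In SKO against Flag, 2 of 44 remodeller genes passed the 2-fold rule, both higher (4.55%, against a background of 6.18% of all genes higher and 0.0182% lower). All genes shifted by 0.50 in this comparison, by 0.97 in column 1 and 0.09 in column 2, and relative to that shift 0 of 44 passed the rule (background 1.31% higher and 0.0819% lower). The remodeller median was 0.53 as deposited and 0.02 relative to all genes, against 0.10 for genes at the minimum. As deposited, the summed marker signals were 195 in SKO and 162 in Flag for fibroblast genes and 23.8 and 15.0 for pluripotency genes. They were 26.3 and 9.51 for epithelial, 25.2 and 10.9 for macrophage, 14.5 and 9.65 for endothelial and 37.0 and 16.6 for neural genes. With the common shift removed, the median log2 signal was lower in SKO for fibroblast (3.39 against 3.53 in Flag), pluripotency (1.19 against 1.24) and epithelial genes (0.90 against 0.95). It was higher in SKO for macrophage (0.46 against 0.21), endothelial (1.27 against 1.25) and neural genes (2.64 against 2.16). The part of these markers in the result was not tested.

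Dpf1 had column values of 16.6 and 15.7 in SKO, against 4.95 and 10.4 in Flag, a log2 difference of 1.16 and of 0.65 relative to all genes. Smarcd1, the BAF60a subunit that links SWI/SNF to transcription factors, had column values of 21.4 and 17.4 in SKO, against 7.44 and 11.5 in Flag, a difference of 1.05 and of 0.54 relative to all genes. Both genes were higher in each column, and their SKO values did not overlap those of Flag. The same held for 27 of the 44 genes (61.4%), against 49.7% of all genes and 65.0% of genes at the minimum. Smarcd3, the muscle and heart paralogue of Smarcd1 and named after its values were seen, had column values of 22.5 and 18.8 in SKO, against 8.26 and 13.0 in Flag, a relative difference of 0.47. Brd7 was the lowest of the family relative to all genes, at -0.39, with 12.1 and 11.5 in SKO and 8.99 and 13.2 in Flag.

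The 5 INO80 genes among the 44 stood below the shift of all genes in SKO against Flag. All 5 genes, which are Ino80, Srcap, Ep400, Ruvbl1 and Ruvbl2, were below the median of all genes in both columns, against 19.8% of genes at the minimum, with a median relative difference of -0.16. Over the family as a whole, 13 of 42 genes were above that median in both columns (31.0%, against 43.8%) and 11 below (26.2%, against 19.8%). In Sox2 against Flag the 5 INO80 genes were again all below in both columns, where the background was 54.5%, with a median of -0.31. In Klf4 against Flag 4 of the 5 were below, where the background was 47.1%, with a median of -0.28 and Ino80 as the exception at 0.14. In the Oct4-labelled library against Flag 1 of the 5 was below, where the background was 21.6%, with a median of -0.039. These 4 comparisons share the Flag library, so they are not independent.

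**Figure D2:**
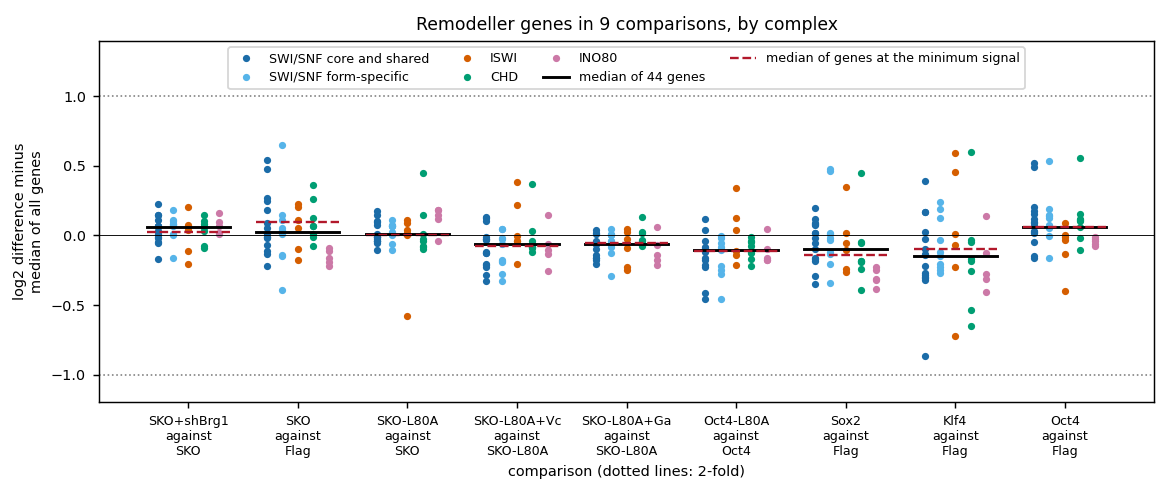
Log2 difference relative to the median of all genes for each remodeller gene, by complex, in the 9 comparisons. Points are genes, coloured by complex, black bars are the median of the 44 genes, dashed bars that of genes at the minimum signal, and dotted lines mark 2-fold. The INO80 genes lie below 0 in SKO against Flag and in Sox2 against Flag, with medians of -0.16 and -0.31, and no gene reaches 2-fold on this scale.

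The single factors were each set against Flag to ask what accessibility each brings. With Klf4, 0 of 44 remodeller genes passed the 2-fold rule (background 0.742% higher and 0.141% lower), nor did any relative to all genes (background 0.706% higher and 0.155% lower), with a median difference of -0.12 and of -0.15 relative to all genes. Klf4 was the lowest condition for 18 of the 42 genes at the minimum, as it was for 33.4% of all such genes. In 7 of the 44 genes it was the lowest in both columns, against 14.9% of genes at the minimum, and these were Smarcc1, Smarcd2, Dpf1, Actl6b, Chd3, Chd4 and Ep400. In 4 genes, Arid1b, Baz1a, Baz2a and Ino80, it was the highest in both columns, against 4.06%.

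Both NuRD ATPases were low in Klf4. Chd3 had column values of 6.89 and 7.83 in Klf4, against 9.36 and 13.8 in Flag, a relative difference of -0.65. Chd4 had column values of 3.87 and 4.46 in Klf4, against 5.20 and 6.90 in Flag, a relative difference of -0.54, with all its values there below the minimum. Actl6b had column values of 1.90 and 3.02 in Klf4, against 3.49 and 5.53 in Flag, a relative difference of -0.86, also below the minimum. The 3 genes were lower in each column, and for each the Klf4 values lay below both Flag values, as they did for 4 of the 44 genes (9.09%, against 6.72% of all genes).

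Baz1a, the ACF1 partner of Snf2h and named after its values were seen, went the other way, with 11.8 and 15.8 in Klf4 against 6.31 and 12.3 in Flag, a relative difference of 0.59. Baz2a, the TIP5 subunit that silences ribosomal RNA genes and is named after its values were seen, had column values of 13.5 and 14.2 in Klf4, against 7.54 and 13.0 in Flag, a relative difference of 0.45. Smarcc2, a scaffold subunit also named after its values were seen, had column values of 11.2 and 11.5 in Klf4, against 6.26 and 11.4 in Flag, a relative difference of 0.39. For Baz1a and Smarcc2 the values of Klf4 and Flag overlapped, since column 2 of Flag exceeded column 1 of Klf4, although Klf4 was higher within each column.

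With Sox2, 0 of 44 genes passed the rule (background 0.0592% higher and 0.127% lower), nor did any relative to all genes (background 0.0637% higher and 0.1% lower), and the median was -0.19, or -0.10 relative to all genes. Dpf1 had column values of 7.51 and 11.9 in Sox2, against 4.95 and 10.4 in Flag, a relative difference of 0.48. Chd6 was the lowest of the family relative to all genes, at -0.39, with 19.7 and 24.9 in Sox2 against 23.2 and 41.3 in Flag. Of 39 genes at the minimum, 4 were above the general shift in both columns (10.3%, against 15.7%) and 23 below (59.0%, against 54.5%).

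In the Oct4-labelled library, 0 of 44 genes passed the rule against Flag (background 0.355% higher and 0.0228% lower), nor did any relative to all genes (background 0.191% higher and 0.0637% lower), and the median was 0.25, or 0.06 relative to all genes. Dpf1 had 11.1 and 12.7 in the Oct4-labelled library, against 4.95 and 10.4 in Flag, a relative difference of 0.53. Smarcd1 had 14.3 and 16.0, against 7.44 and 11.5 in Flag, a relative difference of 0.52. Actl6b had 6.50 and 7.77, against 3.49 and 5.53 in Flag, a relative difference of 0.49. For these 3 genes both values of the Oct4-labelled library lay above both of Flag, as they did for 7 of the 44 genes (15.9%, against 16.9% of all genes). Since that library also carried the Sox2 signal, Oct4 and Sox2 cannot be told apart in it.

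The L80A comparisons ask what the Oct4 mutation does, alone and with Sox2 and Klf4. In Oct4-L80A against the Oct4-labelled library, 0 of 44 genes passed the rule (background 0% higher and 0.769% lower), also relative to all genes (background 0.00455% higher and 0.2% lower). The median was -0.50, or -0.11 relative to all genes, with 2 of 42 genes above the general shift in both columns (4.76%, against 9.41%) and 24 below (57.1%, against 48.3%). Dpf1 had 4.24 and 9.93 in Oct4-L80A, against 11.1 and 12.7 in the Oct4-labelled library, a relative difference of -0.46. Smarcd1 had 7.13 and 9.76 in Oct4-L80A, against 14.3 and 16.0 in the Oct4-labelled library, a relative difference of -0.45. Bcl7c, a small SWI/SNF subunit named after its values were seen, had 9.78 and 19.9 in Oct4-L80A, against 24.5 and 24.6 in the Oct4-labelled library, a relative difference of -0.41. The 3 genes were lower in each column without overlap, as were 12 of the 44 genes (27.3%, against 17.5% of all genes and 22.2% of genes at the minimum). Oct4-L80A lacked the Sox2 signal, at 2.37 and 5.47 against 62.9 and 55.2, so the mutation and the Sox2 signal cannot be told apart here.

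With Sox2 and Klf4 present, most differences at the remodeller genes were small. In SKO-L80A against SKO, 0 of 44 passed the rule (background 0.00911% higher and 0% lower), and the median was 0.01, both as deposited and relative to all genes. Dpf1 had 12.4 and 19.5 in SKO-L80A, against 16.6 and 15.7 in SKO. Smarcd1 had 18.0 and 19.5 in SKO-L80A, against 21.4 and 17.4 in SKO. As deposited, each was lower in column 1 and higher in column 2. The median difference of all genes had the same signs, at -0.22 for column 1 and 0.23 for column 2. Once these medians were subtracted, Smarcd1 was slightly negative in both columns, at -0.02 and -0.06. Dpf1 still had opposite signs, at -0.21 and 0.08. Chd7 stood apart among the genes at the minimum, with 8.94 and 15.1 in SKO-L80A against 8.04 and 8.93 in SKO. Its relative difference of 0.45 was 0.37 in column 1 and 0.53 in column 2. Smarca1 had a larger relative difference of -0.58, with -0.48 in column 1 and -0.69 in column 2, at levels below the minimum in both conditions.

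Vitamin C, a cofactor of enzymes that demethylate histones and DNA, and Gadd45a, a stress-response protein linked to DNA demethylation, were each added to SKO-L80A. With vitamin C, 0 of 44 genes passed the rule against SKO-L80A (background 0% higher and 0.46% lower). All 44 differences were negative, as were those of 86.2% of all genes and 99.8% of genes at the minimum. Their median was -0.55 for the remodeller genes, while all genes shifted by -0.49. Relative to that shift, Smarcd3 was lowest at -0.33 and Brd7 next at -0.32, with 5.45 and 8.96 in SKO-L80A+Vc against 10.1 and 15.2 in SKO-L80A for Brd7. Chd4 was above it at 0.37, with 7.08 and 6.96 in SKO-L80A+Vc against 6.85 and 8.53 in SKO-L80A, so its signal was nearly level while most others were lower.

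With Gadd45a, 0 of 44 genes passed the rule against SKO-L80A (background 0% in each direction). All 44 differences were again negative, as were those of 79.9% of all genes and 99.4% of genes at the minimum. Their median was -0.31 for the remodeller genes, against -0.25 for all genes. Smarca5 was at -0.25 relative to all genes and Chd4 at 0.13. Both additions share SKO-L80A as the library they are set against, and 25 of 42 genes with vitamin C (59.5%, against 50.5%) and 23 of 42 with Gadd45a (54.8%, against 42.1%) were below the median of all genes in both columns.

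Some genes are followed here over all 10 conditions. After the common shift was removed, the means of Dpf1 and Smarcd1 were above Flag in every condition but Klf4, which had the lowest mean for both. The deposited signal in Klf4 was 5.15 and 7.04 for Dpf1 and 7.30 and 9.97 for Smarcd1. Columns did not always agree: in column 2 of Oct4-L80A both genes were below Flag. The log2 values there were 3.26 against 3.31 for Dpf1 and 3.24 against 3.46 for Smarcd1, which was also below its 3.35 in Klf4. Actl6b was highest, after the common shift was removed, in the Oct4-labelled library and lowest in Klf4. Chd7 was the 1 remodeller gene with Flag as its lowest condition in both columns, a pattern found in 4.13% of genes at the minimum, at 3.17 and 6.58. Relative to all genes it was above Flag by 0.36 in SKO, 0.60 in Klf4, 0.45 in Sox2 and 0.55 in the Oct4-labelled library, all set against the same Flag library.

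**Figure D3:**
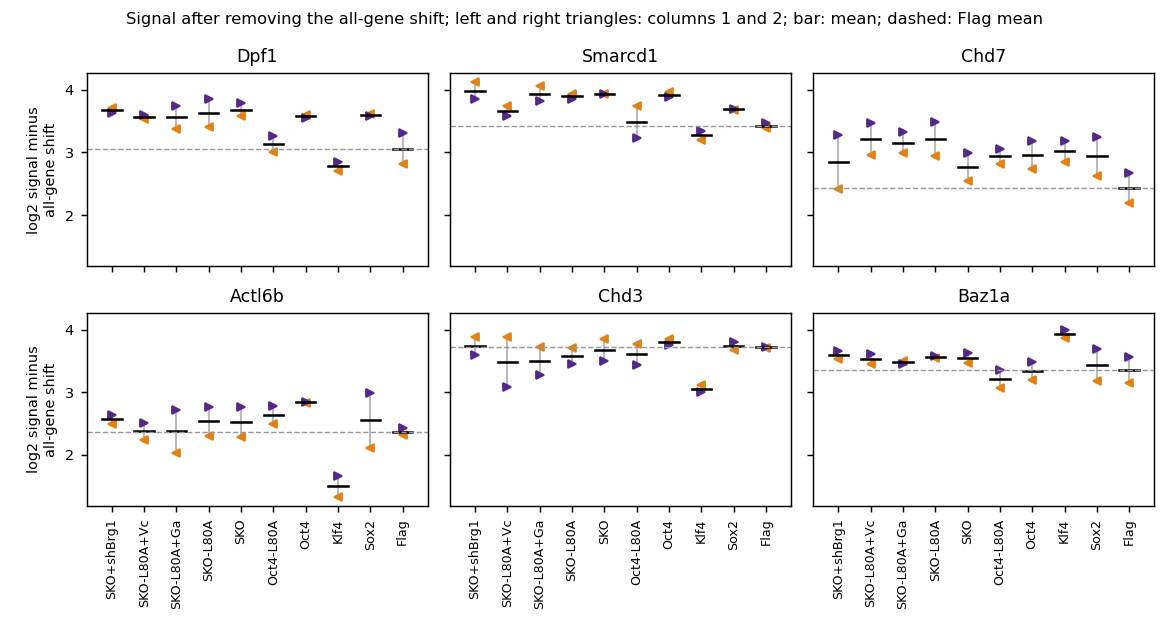
ATAC signal of Dpf1, Smarcd1, Chd7, Actl6b, Chd3 and Baz1a in the 10 conditions on a log2 scale, after the shift common to all genes was removed from each column. Triangles are the columns, bars their mean, and the dashed line is the mean of Flag. Chd7 is lowest in Flag, Dpf1, Actl6b and Chd3 are lowest in Klf4, and Baz1a is highest in Klf4.

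Other genes of the same complexes were examined beside the 44. A list of 62 partner subunits and related ATPases, all present in the table, had a median difference of 0.10 in SKO+shBrg1 against SKO, or 0.01 relative to all genes, and 0 of 62 passed the rule. Of its 58 genes at the minimum, 16 were above the median of all genes in both columns (27.6%, against 34.9%) and 8 below (13.8%, against 18.9%). In SKO against Flag 4 of 62 passed the rule, all higher (6.45%, near the background of 6.18%), and they were the NuRD subunits Mta1, Mta3 and Cdk2ap1 and the TIP60 subunit Mrgbp. Relative to the shift of all genes, 1 of them, Mta1, still passed (1.61%, against 1.31%). Of the 57 listed genes at the minimum there, 18 were above the median of all genes in both columns (31.6%, against 43.8%). Below it in both were 9 (15.8%, against 19.8%). The list holds further subunits of the INO80, SRCAP and TIP60-p400 complexes, for which no separate count was made.

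Mta1, which joins histone deacetylases to NuRD, had the largest difference from Flag of the 62 genes in SKO and in Klf4. It had column values of 16.0 and 10.7 in SKO, against 2.26 and 3.13 in Flag, a log2 difference of 2.24 and of 1.73 relative to all genes. In Klf4 it had 15.8 and 17.6, a difference from Flag of 2.59 and of 2.56 relative to all genes. It was low in the other single factors, with 2.16 and 4.45 in Sox2, 2.39 and 4.39 in the Oct4-labelled library and 1.78 and 3.15 in Oct4-L80A. Over the 6 conditions that received Klf4 its 12 values lay between 8.50 and 17.6, and over the 4 conditions without it the 8 values lay between 1.78 and 4.45, with no overlap. Every value with Klf4 lay above every value without it for 0 of the 44 genes, for 2 of the 62 genes, Mta1 and Mrgbp, and for 193 genes at the minimum, which are 0.879% of all genes. In SKO+shBrg1 it had 17.2 and 12.8. Mta1 lies at chr12:113098248-113137206 on GRCm38.p6, and no other gene of the table shared its values.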

How the data were processed

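Per the labels, 10 ATAC-seq libraries of mouse embryonic fibroblasts were made, 1 per condition. The table deposited by the authors gives a signal, treated as a density, for 21965 Ensembl genes in 20 columns, 2 per condition. Per the submitters' processing notes the build is mm10 and the tools include the aligner Bowtie2 2.2.5 and the peak caller MACS2 2.1.0. No source used here gives the counting window or how libraries were scaled to each other. Depth is unknown, so no interval was computed.

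Differences were taken with Python 3.11.15 and pandas 2.3.3 as log2(signal + 0.138), the pseudocount being the 10th percentile of values above 0, and averaged over both columns. Folds on this scale understate differences of low genes. The size rule asked for 2-fold with the higher level at or above 6.92, the median of all values, over all genes. Relative differences have the median of all genes subtracted. For ranges over conditions, each column was shifted by its median deviation from the genes' means over the 20 columns. Counts of genes on 1 side of the median in both columns, and of genes without overlap, were added after values were seen. The calculation was tested on simulated data. The 44 members, their grouping, the other lists and the rules were chosen with earlier results of these data known. Named genes were all ATPases, the 5 largest differences in each direction of SKO+shBrg1 against SKO, genes past the size rule, and the 3 highest, lowest, most and least variable, and any other is said to be named after its values were seen or is given in a count. Alternatives were the pseudocount, removal of the common shift, quantile and lowess normalisation, and single columns. Gene names are the table's, and gene coordinates are RefSeq's, in which all 44 symbols matched.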

Additional observations from a re-analysis of the deposited data

Results flagged for a closer look

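In 7 remodeller genes the difference of SKO-L80A from SKO, relative to the all-gene median, pointed one way in both columns. The relative difference of Oct4-L80A from the Oct4-labelled library pointed the other way in both columns. The values are relative log2 differences, with the all-gene median subtracted, and whether the effects differ was not tested. In SKO-L80A against SKO, Smarcd2 was at 0.11, Dpf2 at 0.06, Dpf3 at 0.08, Chd9 at 0.15, Ruvbl1 at 0.15 and Ruvbl2 at 0.18. As deposited, these 6 genes were lower in column 1 and higher in column 2 of that comparison. All genes shifted there by -0.22 in column 1 and 0.23 in column 2. In Oct4-L80A against the Oct4-labelled library, Smarcd2 was at -0.16, Dpf2 at -0.22, Dpf3 at -0.28, Chd9 at -0.17, Ruvbl1 at -0.17 and Ruvbl2 at -0.16. Smarca1 went the other way, with -0.58 in SKO-L80A against SKO and 0.34 in Oct4-L80A against the Oct4-labelled library, at levels below the minimum signal in all 4 conditions. Of the 42 remodeller genes at the minimum in both comparisons 6 had opposite directions (14.3%), and 1372 of the 11148 such genes overall did (12.3%). The Oct4-labelled library also carried the Sox2 signal, at 62.9 and 55.2 against 2.37 and 5.47 in Oct4-L80A. The mutation and the Sox2 signal thus cannot be told apart in that comparison, and the part of either in these differences was not tested.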

How the results depend on the processing

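The median difference of the remodeller genes in SKO+shBrg1 against SKO was 0.16 as deposited, 0.064 relative to all genes, 0.033 after quantile normalisation and 0.033 after a lowess trend was removed. The count of genes past the size rule in that comparison stayed at 0 under every alternative run. In SKO against Flag the count of 2 became 0 relative to all genes, 0 after quantile normalisation, 0 after lowess, 25 with column 1 alone and 0 with column 2 alone, where 40.3% and 1.12% of all genes were higher with those columns. With column 1 alone, Oct4-L80A was lower at 11 genes when set against the Oct4-labelled library (19.3% of all genes). In that column 1 gene, Dpf1, was higher in the Oct4-labelled library than in Flag, where all genes shifted by 0.35. With column 2 alone, 1 gene, Smarcb1, was lower in SKO-L80A+Vc than in SKO-L80A, where all genes shifted by -0.62. The share of all genes past the rule was not computed for the Dpf1 and Smarcb1 counts. Of the 28 named genes, the difference in SKO+shBrg1 against SKO changed sign for 2 relative to all genes, 6 after quantile normalisation, 6 after lowess, 4 with column 1 alone, 6 with column 2 alone and 0 with a pseudocount 4 times larger or smaller. No paired analysis was possible because each condition has 1 library, and for the same reason no library could be left out of a group. Depth cannot be read from the table, so it sets no stated limit on single values.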
